A study of Mus musculus with 8 samples.

Results

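The transcripts described here are those of 9 genes that encode germline RNA-binding proteins: Dazl, Ddx4, Nanos2, Nanos3, Dnd1, Elavl2, Pum2, Cpeb1 and Stk31. They were found by name or accession among the probes of a whole-genome mouse array, and 13 of the 41101 non-control probes used belonged to them, out of 19674 named genes. Dazl and Elavl2 had 2 probes each, Pum2 had 3, and the other genes had 1. Every probe found for these genes was kept, and the genes themselves were chosen with earlier results of these data known.

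The array measured an RNA immunoprecipitation (IP) with an antibody against DAZL, in which RNA that comes down with the protein is compared with that of the lysate it was taken from (input). The 8 samples formed 4 groups of 2 arrays: XX input, XX IP, XY input and XY IP. All came from gonads of embryos of strain MCH at E14.5 (E for embryonic day), with no mutation or transgene named in the labels, in lots of 50 gonads of which 5% of the lysate was kept as input, and labelling started from 50 ng of RNA for inputs and 1 ng for IPs. The study asked which mRNAs associate with DAZL in each sex, and each difference below is against the input alone, because a control antibody was not part of the 8 arrays.

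DAZL is a germ cell protein that binds mRNAs mostly in their 3′ untranslated regions and is implicated in their translation. Germ cells of the embryonic gonad control much of their differentiation after transcription: in XY germ cells NANOS2 recruits the CCR4-NOT deadenylase to mRNAs and directs the male pathway, while XX germ cells at this stage are entering meiosis. Proteins of this kind often bind each other's mRNAs, so that the mRNA of an RNA-binding protein is itself a candidate target.

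Levels are log2 processed signals relative to the 75th percentile of the same array, and a level of 0 is that percentile. A difference of IP minus input was called when its Benjamini-Hochberg adjusted p in a limma fit over 18265 probes was under 0.05 and it reached 4-fold (2 on the log2 scale), and a difference between inputs at the same p with no minimum fold. The labels do not say whether the 2 arrays of a group came from separate lots of gonads, so p-values measure only the spread between these arrays. The 2 XX groups shared a slide and scan and the 2 XY groups shared another, and therefore sex and slide cannot be told apart. The inputs had 16713 to 20391 probes well above background and the IPs 6068 to 9468. The median gap between the 2 arrays of a group was 0.17 to 0.19 for inputs and 0.73 to 0.83 for IPs on the log2 scale. The signal at the 75th percentile ranged from 77.4 to 172.8 scanner units among inputs and from 6.82 to 13.1 among IPs. From input to IP its log2 value fell by 3.45 in XX and fell by 3.37 in XY, and a probe of unchanged scanner signal gained that much from the scaling alone.

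All 13 probes passed the filter on dim signals, which asked for both arrays of at least 1 group to be well above background. Nanos2 passed only through XY, Nanos3 only through XY input and the second Elavl2 probe only through XX IP, so for these a comparison with the other groups starts from a group chosen for its signal, and their calls in such comparisons are no support for a difference. In XX, 7 of the 13 were called higher in the IP and 0 lower, where 14.1% of all tested probes were called higher and 9.91% lower. Of these 7, the single probes of Nanos2 and Nanos3 were not well above background on any XX array, and the second Elavl2 probe was on both IPs but only 1 input. The other 4, measured on all 4 XX arrays, belonged to Dazl, Elavl2 and Cpeb1. In XY, 6 of the 13 were called higher and 0 lower, against 10.2% and 7.68% of all tested probes, and 1 of the 6, the second Elavl2 probe, was not well above background on any XY array. The other 5 belonged to Dazl, Nanos2, Elavl2 and Cpeb1. With no minimum fold, 10 members passed at adjusted p in XX and 8 in XY, where 25.9% and 20.2% of all tested probes did. Both IP arrays lay above both inputs for 12 of the 13 probes in XX and 8 in XY, which was so for 40.2% and 35.4% of all tested probes, and below them for 0 and 2, which was so for 37.4% and 37.1%. Among probes well above background on all 4 arrays compared, 4 of 9 member probes were called higher in XX beside 26.5% of 5567 probes, and 5 of 9 in XY beside 19.5% of 5481. The median difference over these 9 was 1.95 in XX and 2.05 in XY, beside 0.77 and 0.33 over all such probes.

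**Figure D1:**
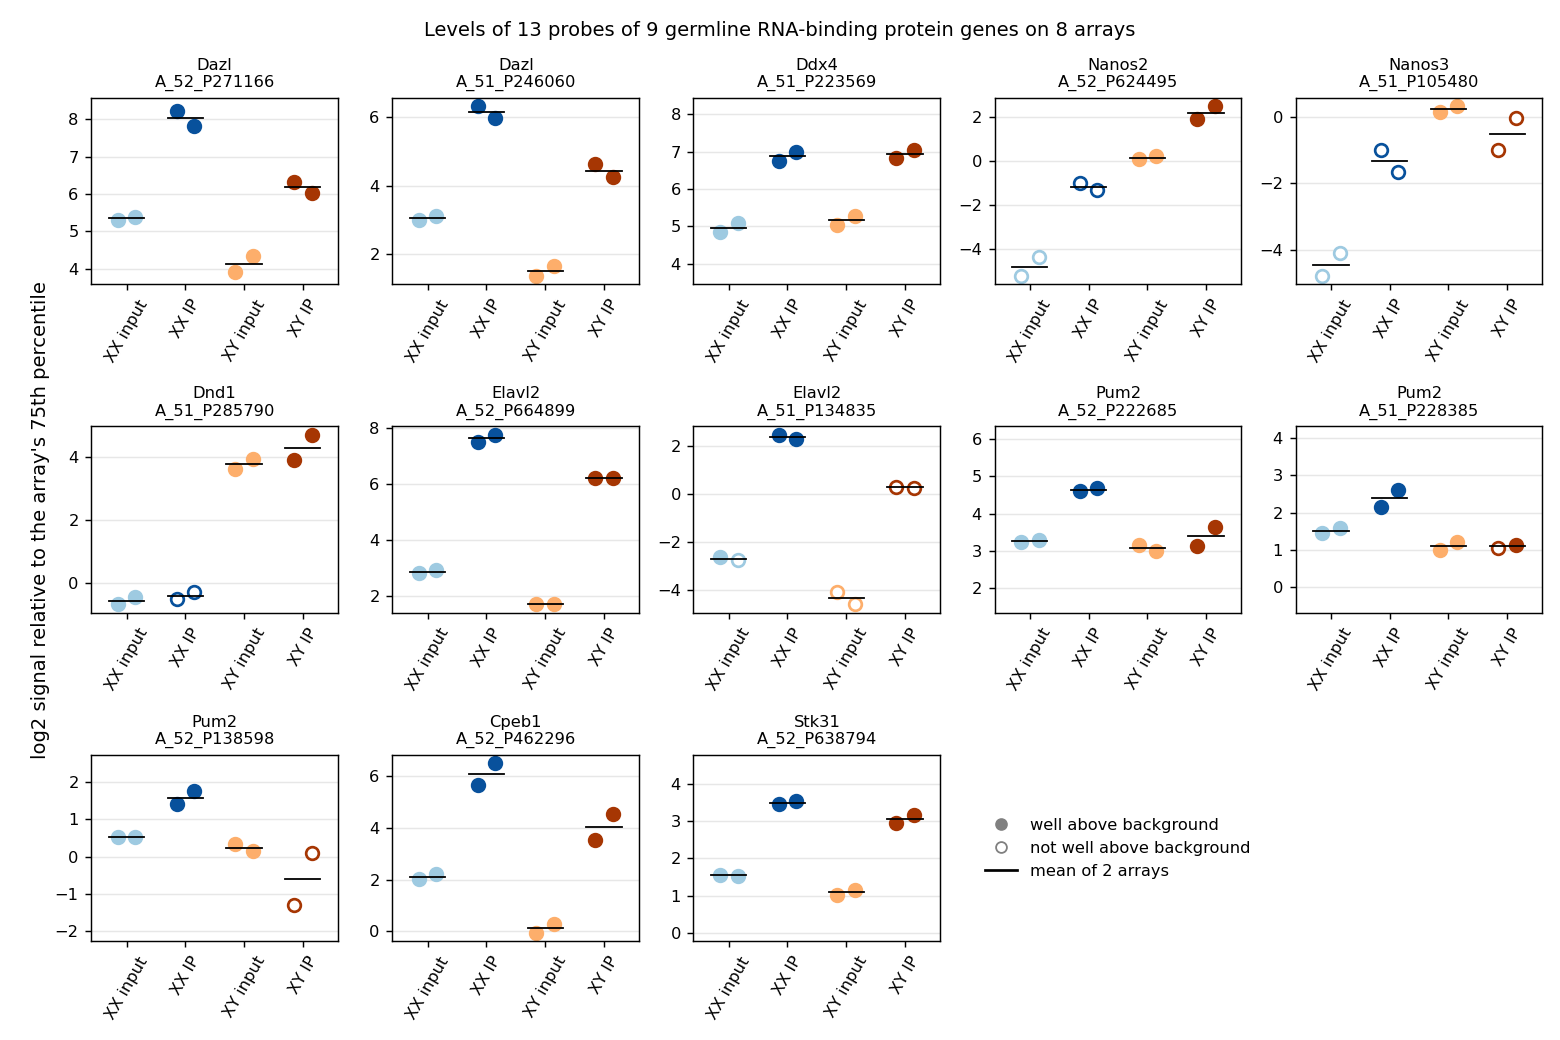
Level of each of the 13 probes on the 8 arrays (y axis: log2 signal relative to the array's 75th percentile; every y axis spans at least 5 units and its position differs between panels). Each point is 1 array, filled where the probe was well above background, and lines are means of 2 arrays. Both Dazl probes, the first Elavl2 probe and Cpeb1 were filled on every array and higher in both IP arrays than in both inputs of each sex, while Nanos2 and Nanos3 were open on all XX arrays.

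Dazl, whose own protein was precipitated, was higher in the IP than in the input in both sexes on both of its probes. The brighter probe (A_52_P271166; chr17:49745165-49745224, build mm8, the positions the array files give) had levels of 5.30 and 5.39 in XX input, 8.23 and 7.83 in XX IP, 3.92 and 4.33 in XY input, and 6.33 and 6.04 in XY IP. Inputs and IPs did not overlap in either sex, and all 4 XX values lay above their XY counterparts. The IP exceeded the input by 2.69 in XX (SE 0.39, 6.44-fold, limma adjusted p = 0.00031) and by 2.06 in XY (SE 0.39, 4.17-fold, adjusted p = 0.0020).

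The other Dazl probe (A_51_P246060; chr17:49753199-49753345) lies on a stretch of 147 genomic bases, while the other 12 probes each cover 60. Its levels were 3.00 and 3.10 in XX input, 6.31 and 5.97 in XX IP, 1.36 and 1.66 in XY input, and 4.63 and 4.24 in XY IP. These values followed the order of the brighter probe, with no overlap between groups of the same sex. The XX difference was 3.09 (SE 0.39, adjusted p = 0.00016) and the XY difference 2.93 (adjusted p = 0.00026). Both calls were lost with normexp background correction (0.93 in XX and 0.66 in XY) and with the same after extreme local backgrounds were replaced (0.90 and 0.84, adjusted p = 0.0050 and 0.0072, short of 4-fold). These values stayed positive, and lay 0.71 to 0.93 above the median of all tested probes.

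Before scaling, the brighter Dazl probe read 6825 and 3237 scanner units in XX input, 2704 and 2857 in XX IP, 1792 and 1630 in XY input, and 549 and 864 in XY IP. In scanner units it was thus dimmer in the IPs by 0.76 in XX and 1.31 in XY on the log2 scale, a smaller loss than that of the 75th percentile. With arrays scaled to the 50th percentile in place of the 75th, neither Dazl probe was called in either sex, and the brighter one differed by 0.68 in XX and 0.20 in XY. That scaling moved the median of all tested probes to -1.92 in XX and -1.90 in XY, and since it shifts every probe of an array alike, the distance to this median, 2.60 in XX and 2.10 in XY, cannot change with it. With background correction by normexp and extreme local backgrounds replaced, a setting added after seeing the data, the brighter probe differed by 0.42 in XX and -0.16 in XY and the call was lost, with an XX distance to the median of 0.43 and an XY distance of -0.08. Normexp as planned gave distances of 0.46 for XX and 0.08 for XY. The XY call of this probe was also lost without XY input replicate 1 (1.86) or XY IP replicate 1 (1.92), which took it below 4-fold, and with quantile normalization (1.72) or scaling to probes above background on all 8 arrays (1.74).

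Enrichment of Dazl over the input did not differ between the sexes beyond the spread between arrays. The XX minus XY difference of the 2 enrichments was 0.63 (95% interval -0.59 to 1.84, adjusted p = 0.66) on the brighter probe and 0.16 (-1.05 to 1.37, adjusted p = 0.93) on the other. These intervals still hold differences of more than 2-fold in either direction for the other probe and in favour of XX for the brighter one.

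Plekha5, Cstf2, Ammecr1, Rspry1 and 9930021J03Rik were the 5 named genes whose pattern over the 8 arrays was most like that of the brighter Dazl probe. Likeness was the root mean square gap after each probe was centred on its own mean, which was 0.22 to 0.28 for these 5, 0.34 for the other Dazl probe, and 1.59 at the median of 16880 probes compared. Of the 5, Plekha5 was well above background on 7 of the 8 arrays, Cstf2 on 6 and the others on all 8.

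Ddx4 encodes an RNA helicase, the mouse vasa homologue, present in germ cells of both sexes. Its probe (A_51_P223569; chr13:113719286-113719345) had levels of 4.83 and 5.10 in XX input, 6.75 and 7.0 in XX IP, 5.03 and 5.28 in XY input, and 6.83 and 7.05 in XY IP. Inputs and IPs were apart in each sex, while the inputs of the sexes overlapped, as did the IPs. The difference of IP minus input was 1.91 in XX (SE 0.38, 3.76-fold, adjusted p = 0.0019) and 1.78 in XY (3.43-fold, adjusted p = 0.0039), both past the p threshold and short of 4-fold. The XX value passed 4-fold without XX input replicate 2 (2.04) or without XX IP replicate 1 (2.03). With 50th percentile scaling the 2 differences were -0.10 and -0.09.

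Stk31 encodes a germ cell protein with a Tudor domain and a kinase-like domain. Its probe (A_52_P638794; chr6:49376888-49376947) had levels of 1.57 and 1.52 in XX input, 3.46 and 3.53 in XX IP, 1.03 and 1.15 in XY input, and 2.95 and 3.18 in XY IP. The IPs lay above the inputs in both sexes with little spread. The differences were 1.95 in XX (SE 0.37, 3.86-fold, adjusted p = 0.0015) and 1.98 in XY (3.93-fold, adjusted p = 0.0019), close to the 4-fold limit and under it. In XY the limit was passed without XY IP replicate 1 (2.09), without XY input replicate 2 (2.04) and with quantile normalization (2.12). With 50th percentile scaling the XX difference was -0.06 and the XY difference 0.11, and normexp gave 0.09 for XX and 0.07 for XY.

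Ddx4 and Stk31 were alike in that their difference between the sexes in enrichment was near 0, with 0.13 (95% interval -1.05 to 1.31) for Ddx4 and -0.03 (-1.18 to 1.13) for Stk31. The intervals leave room for a difference of about 1 on the log2 scale in either direction.

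Elavl2, a neuronal and germ cell member of the ELAV family that binds AU-rich and U-rich sequences, had the largest difference between IP and input of the 9 genes in both sexes. Its brighter probe (A_52_P664899; chr4:90743738-90743797) had levels of 2.82 and 2.91 in XX input, 7.53 and 7.77 in XX IP, 1.69 and 1.72 in XY input, and 6.22 and 6.22 in XY IP. The arrays of each group lay close together and IPs and inputs were far apart. The difference was 4.78 in XX (SE 0.37, 27.6-fold, adjusted p = 5.9e-05) and 4.51 in XY (SE 0.37, 22.8-fold, adjusted p = 2.5e-05). Among probes well above background on all 4 arrays, 23 of 5567 had a larger difference in XX and 59 of 5481 in XY.

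In scanner units this Elavl2 probe was brighter in the IP than in the input even though the bulk of probes was dimmer: 1218 and 581 in XX input, 1659 and 2734 in XX IP, 383 and 268 in XY input, and 508 and 980 in XY IP. The scanner signal was 1.34 higher in XX and 1.14 higher in XY on the log2 scale, though the ranges came close to each other. The XX call held under each of the 21 alternatives, with differences of 2.48 to 4.90. The XY call was lost only with normexp as planned (1.88), whose fitted background was outlying on XY input replicate 1 and XY IP replicate 2. It held with extreme local backgrounds replaced (2.06).

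The second Elavl2 probe (A_51_P134835; chr4:90744745-90744804) was dim. Its levels were -2.62 and -2.78 in XX input, 2.45 and 2.29 in XX IP, -4.09 and -4.61 in XY input, and 0.30 and 0.25 in XY IP. It was well above background on 1 of 2 XX inputs, on both XX IPs and on no XY array. The fitted XX difference was 5.07 (SE 0.39, adjusted p = 5.9e-05). Its size is uncertain because 1 input was at background, and the probe entered the test only through XX IP, the group in which it was high. It was 1.34 with a common floor, 1.74 with normexp and 1.73 with normexp and backgrounds replaced, and under these 3 settings it was not called. No fold is given for XY, where both groups were at background.

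Cpeb1, which binds the cytoplasmic polyadenylation element and controls poly(A) tail length, followed Elavl2. Its probe (A_52_P462296; chr7:81220990-81221049) had levels of 2.01 and 2.20 in XX input, 5.68 and 6.51 in XX IP, -0.07 and 0.27 in XY input, and 3.52 and 4.53 in XY IP. The IP arrays differed by 0.82 in XX and 1.01 in XY and still lay well above the inputs. The difference was 3.99 in XX (SE 0.46, 15.9-fold, adjusted p = 0.00011) and 3.92 in XY (SE 0.46, 15.2-fold, adjusted p = 0.00014), and 147 and 153 of the probes so measured on all 4 arrays had a larger one. The XX value fell just under 4-fold with 50th percentile scaling (1.99). Both calls were lost with normexp, where the differences were 1.77 in XX and 1.01 in XY. They were also lost with extreme local backgrounds replaced, at 1.75 and 1.64.

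For neither gene's brightest probe did the enrichment differ between the sexes beyond the spread between arrays. The XX minus XY difference was 0.27 (95% interval -0.88 to 1.43) for the brighter Elavl2 probe and 0.07 (-1.36 to 1.50) for Cpeb1. For the second Elavl2 probe, at background in XY, the fitted value was 0.44 and did not pass. A common floor of 1.02 lay above all its XY levels and fixed the XY difference at 0. The 1.34 that passed under that floor is the XX difference alone and no support for a difference between the sexes.

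**Figure D2:**
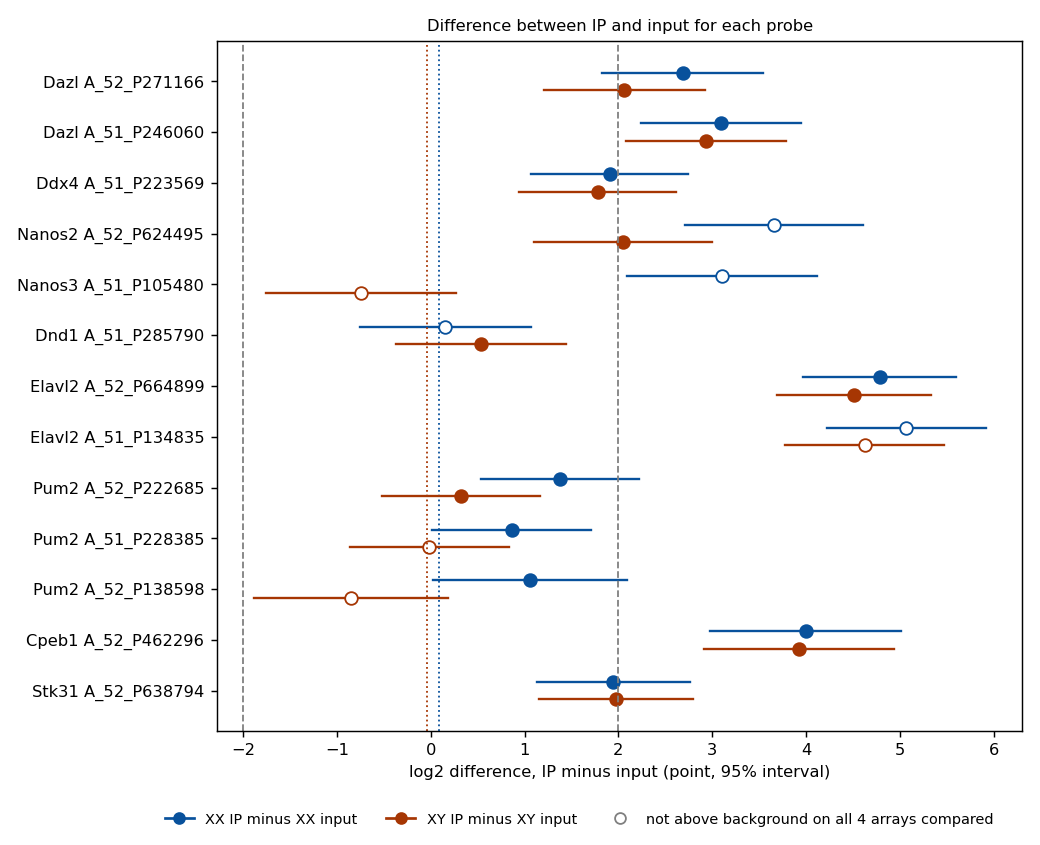
Difference of IP minus input for each of the 13 probes (x axis: log2 units; points with 95% intervals of the limma fit), in XX and XY gonads. Open points mark comparisons in which the probe was not well above background on all 4 arrays, dashed lines the 4-fold limits and dotted lines the medians of all tested probes; Elavl2 and Cpeb1 lie farthest to the right in both sexes, and Dnd1 and Pum2 lie below the upper limit.

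NANOS2 is an RNA-binding protein of XY germ cells that the study places upstream of Dazl. Its probe (A_52_P624495; chr7:18146944-18147003) had levels of 0.11 and 0.23 in XY input and 1.93 and 2.50 in XY IP, and of -5.25 and -4.39 in XX input and -0.99 and -1.33 in XX IP. All 4 XY arrays were well above background and none of the 4 XX arrays was. In XY the IP exceeded the input by 2.05 (SE 0.43, 4.14-fold, adjusted p = 0.0035), and scanner signals were 127.4 and 94.9 in the inputs and 25.9 and 74.4 in the IPs. That call was lost without XY input replicate 1 (1.99) or XY IP replicate 2 (1.76), and under 5 of the other alternatives, with differences of 0.18 with 50th percentile scaling, 0.21 with normexp, 0.47 with normexp and backgrounds replaced, 1.19 with a common floor and 1.72 with scaling to probes above background on all 8 arrays. In XX the scanner signal was 4.6 and 3.7 units in the inputs and 4.5 and 5.0 in the IPs, near to unchanged, and the fitted rise of 3.66 that passed the test is of the size the scaling gives to any unchanged dim signal, so no fold is given.

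Nanos3, a paralogue needed for survival of primordial germ cells in both sexes, had levels on its probe (A_51_P105480; chr8:87066416-87066475) of 0.13 and 0.31 in XY input, -1.0 and -0.04 in XY IP, -4.77 and -4.09 in XX input and -0.99 and -1.66 in XX IP. Both XY inputs were well above background and none of the other 6 arrays was. In XY the IP minus input difference was -0.74 (SE 0.47, adjusted p = 0.22), with an IP that had only a bound. In XX both groups were at background and no fold is given.

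Nanos3 was the single probe of the 13 whose difference in enrichment between the sexes was called, with 3.85 in favour of XX (SE 0.66, adjusted p = 0.011), where 2.18% of all tested probes were called higher in XX and 1.12% lower. The value is the XX difference of 3.10, fitted between arrays at background, minus the XY difference of -0.74. A common floor after scaling, at a level of 1.02, lay above all of this probe's levels, so its value of 0 there was fixed and decides nothing. The call was lost under 8 of 19 alternatives, among them that floor and leaving out XX input replicate 1 (3.50).

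Dnd1 encodes a partner of the NANOS proteins needed for germ cell survival, above all in males. Its probe (A_51_P285790; chr18:36889770-36889829) had levels of -0.68 and -0.44 in XX input, -0.52 and -0.29 in XX IP, 3.62 and 3.93 in XY input, and 3.91 and 4.71 in XY IP. The XY arrays lay far above the XX arrays, and IPs and inputs overlapped in each sex. In XY the IP minus input difference was 0.54 (95% interval -0.37 to 1.44, adjusted p = 0.32). Its sign turned with 50th percentile scaling (-1.33), normexp (-1.18) and normexp with backgrounds replaced (-1.46, adjusted p = 0.010), and none of these was called at 4-fold. In XX it was 0.15 (-0.75 to 1.06, adjusted p = 0.78), with neither IP well above background, so no fold is given.

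PUM2 is a Pumilio protein, a partner of NANOS in repression that is made in many tissues and not only in germ cells. The brightest of its 3 probes (A_52_P222685; chr12:8778298-8778357) had levels of 3.25 and 3.29 in XX input, 4.61 and 4.68 in XX IP, 3.15 and 3.00 in XY input, and 3.15 and 3.66 in XY IP. IP and input were apart in XX and overlapped in XY. The difference was 1.38 in XX (SE 0.39, 2.59-fold, adjusted p = 0.012), short of 4-fold, and 0.32 in XY (adjusted p = 0.52). The sign in XX turned with 50th percentile scaling (-0.63), normexp (-0.49) and normexp with backgrounds replaced (-0.51), and so did that in XY (-1.54, -0.93 and -1.31).

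The other Pum2 probes had the same order in XX. For A_51_P228385 (chr12:8775938-8775997) the levels were 1.45 and 1.60 in XX input, 2.15 and 2.62 in XX IP, 1.01 and 1.22 in XY input, and 1.05 and 1.15 in XY IP, with a difference of 0.86 for XX (adjusted p = 0.084) and -0.01 for XY (adjusted p = 0.98). For A_52_P138598 (chr12:8776607-8776666) the levels were 0.52 and 0.51 in XX input, 1.40 and 1.75 in XX IP, 0.34 and 0.14 in XY input, and -1.31 and 0.08 in XY IP, with a difference of 1.06 for XX (adjusted p = 0.083) and -0.85 for XY (adjusted p = 0.17). The last probe was not well above background on either XY IP. The XX difference was below 0 on both of these probes under the same 3 settings.

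On all 3 Pum2 probes the fitted difference was larger in XX than in XY, and none of the 3 sex differences passed the test: 1.05 (95% interval -0.14 to 2.24, adjusted p = 0.38), 0.88 (-0.32 to 2.07, adjusted p = 0.48) and 1.91 (0.45 to 3.38, adjusted p = 0.16). The last of these passed without XY IP replicate 2 (2.61). Neither XY IP of that probe was well above background, and only 1 of the 2 XY IPs was for A_51_P228385. The XY part of the sex difference is therefore not fully measured on these 2 probes. The probes measure 1 gene in the same RNA and do not count as independent observations.

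**Figure D3:**
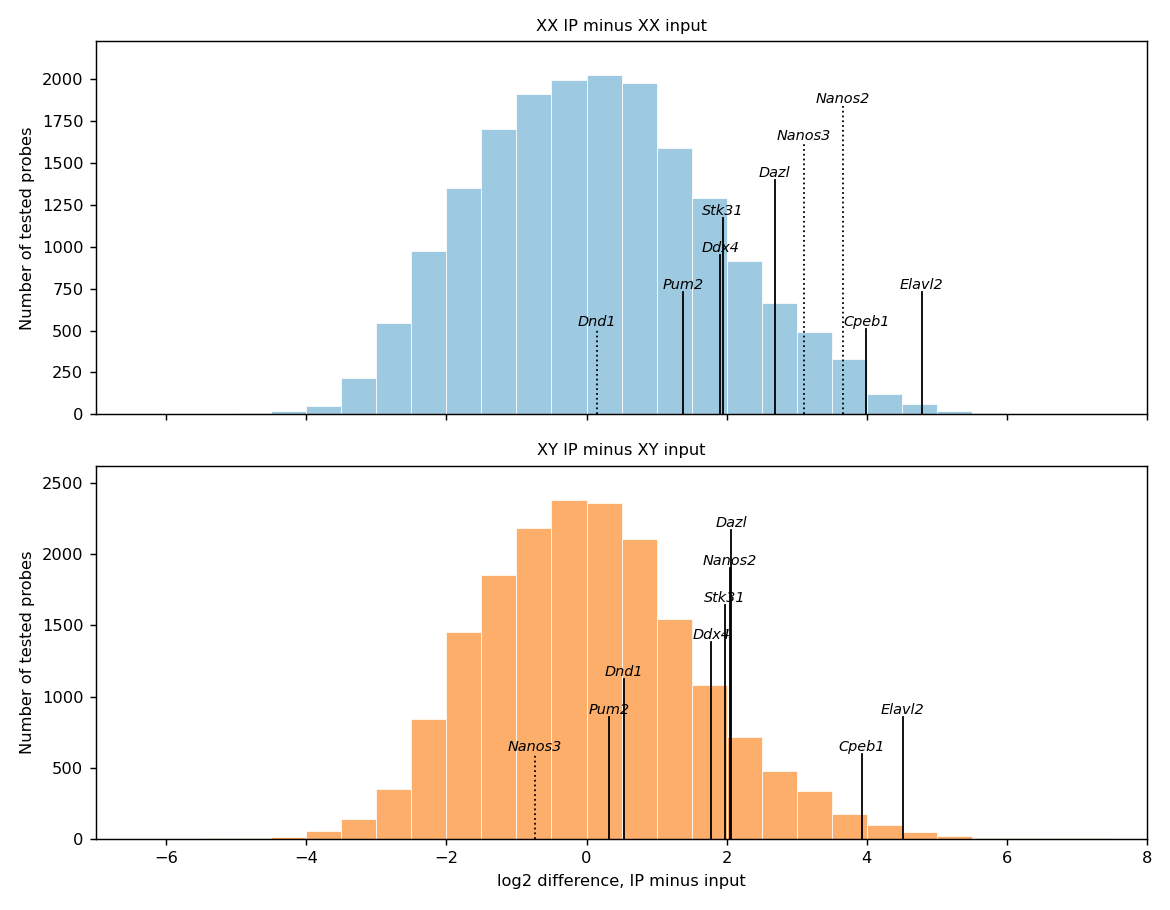
Number of tested probes by difference of IP minus input (x axis: log2 units in bins of 0.5; y axis: number of the 18265 tested probes) in XX (top) and XY (bottom), with the brightest probe of each of the 9 genes marked. Dotted marks were not well above background on all 4 arrays; Elavl2 and Cpeb1 stand in the right tail in both sexes, and Dnd1 and Pum2 in XY stand within the bulk. Heights of the marks carry no value.

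The input arrays give the members' levels in the gonads before precipitation. Of the 13 probes, 6 were called between XX and XY, 3 in each direction, where 5.87% of all tested probes were higher in XX and 6.1% lower. Among these 6, Nanos2, Nanos3 and the second Elavl2 probe had passed the filter only through groups where they were high. Among probes well above background on all 4 inputs, 2 of 10 member probes were called higher and 1 lower, beside 586 (3.81%) and 479 of 15398 probes. Among the 13, both XX inputs lay above both XY inputs for 9 and below them for 3, where each was so for 38% of all tested probes. These are bulk samples, in which fewer cells of a type and less RNA per cell cannot be told apart. The inputs enter the IP comparisons as well, so the 2 sets of values are not independent.

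Dnd1 was lower in XX gonads, and Nanos2 and Nanos3 were well above background on XY inputs only. With both XX inputs at background, the levels were at least 8.76-fold lower for Nanos2 and at least 9.09-fold lower for Nanos3. Both probes entered the test only through XY arrays, where they were high, so their calls are no support for a difference. Dnd1 was well above background on all 4 inputs and 20.2-fold lower in XX (-4.33, SE 0.42, adjusted p = 4.6e-05). The Dnd1 call held under each of the 20 alternatives, with differences from -4.49 to -2.66. The calls of Nanos2 and Nanos3 held under all alternatives but a common floor after scaling. That floor, at a level of 1.02, lay above all input levels of both, so their differences of 0 there were fixed and decide nothing. With normexp the differences were -1.68 for Nanos2 and -1.44 for Nanos3, smaller than the bounds given above.

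Cpeb1 and the second Dazl probe were higher in XX gonads. Cpeb1 differed by 2.00 (SE 0.46, 4.01-fold, adjusted p = 0.014) and the Dazl probe by 1.54 (SE 0.39, 2.91-fold, adjusted p = 0.022). The third call was the second Elavl2 probe (adjusted p = 0.015), for which no size is given, because neither XY input and only 1 XX input was well above background and the probe entered the test only through XX IP. Its difference was -0.45 with normexp and 0.19 with backgrounds replaced. The brighter probes of Dazl and Elavl2 differed in the same direction by 1.22 (adjusted p = 0.067) and 1.15 (adjusted p = 0.068) and did not pass, though both did when any 1 of the 4 IP arrays was left out of the fit. All 3 calls were lost when any 1 of the 4 input arrays was left out, at differences of 1.83 to 2.18 for Cpeb1 and 1.39 to 1.69 for Dazl.

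Ddx4, Stk31 and the 3 Pum2 probes did not pass between the inputs. Ddx4 differed by -0.19 (95% interval -1.03 to 0.65, adjusted p = 0.85) and Stk31 by 0.45 (-0.36 to 1.27, adjusted p = 0.55), and the Pum2 probes by 0.19 to 0.41.

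**Figure D4:**
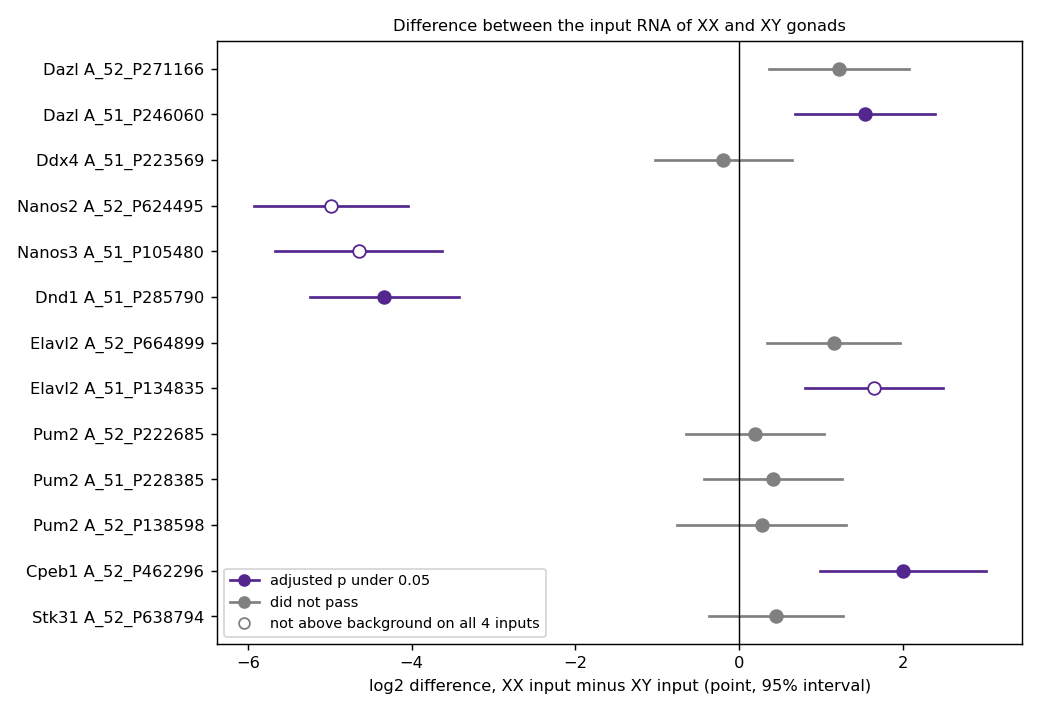
Difference between XX input and XY input for each of the 13 probes (x axis: log2 units; points with 95% intervals of the limma fit). Dark points passed an adjusted p of 0.05 and open points were not well above background on all 4 inputs; Nanos2, Nanos3 and Dnd1 lie farthest to the left, the first 2 as open points whose size is not measured, and Cpeb1 lies at 2.00.

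Other germ cell transcripts were measured beside the members. Of 8 germ cell markers outside the member list, 7 were well above background on both XX inputs (all but Pou5f1) and 7 on both XY inputs (all but Rnf17). Their summed level, in multiples of the 75th percentile, was 100.4 and 109.8 in XX input and 201.9 and 252.2 in XY input. This sum of unlogged levels is weighted to the brightest genes. Single genes differed in both directions, from -4.19 for Dppa3 to 3.44 for Sycp3 (XX minus XY input, log2). Sycp3 and Rnf17 were called higher in XX input, and Dppa3, Tdrd1 and Pou5f1 in XY input. Rnf17 passed the filter only through XX input and Pou5f1 only through XY input, the groups where they were high. The calls of Rnf17 and Pou5f1 are therefore no support for a difference. All 4 Sertoli and all 4 Leydig cell markers tested were called higher in XY input. Amh, Dhh, Star and Cyp11a1 passed the filter only through XY input, where they were high, so their calls are no support for a difference. The XX inputs of Cyp11a1 stood at -5.49 and 0.08. Of the 2 ovarian supporting cell markers tested, Fst was called higher in XX input, the only group through which it passed the filter. Neither XY input was well above background for Fst. Wnt4 differed by 1.18 (adjusted p = 0.13). The part of germ cell number in the members' input differences was not tested.

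Between IP and input the 8 germ cell markers did not move as 1 group. Dppa3, Tdrd1, Sycp3 and Kit, well above background on all 8 arrays, had differences of 2.17 to 2.89 in XX and 2.32 to 3.12 in XY. Mael and Dppa5a, measured as well on all 8, had -0.59 and -1.78 in XX and -0.92 and -1.32 in XY. Neither Pou5f1 nor Rnf17 was well above background on both IPs of either sex. The median over each somatic list was 1.56 in XX and -0.78 in XY for Sertoli cells, 0.58 and -2.68 for Leydig cells, -2.52 and 0.28 for ovarian supporting cells, -2.73 and -1.52 for endothelium and -1.93 and -1.55 for erythroid cells. These medians are over the tested genes, 4 in a list but 2 for ovarian supporting cells and endothelium, and of a list at most 1 gene was well above background on both XX IPs and at most 2 on both XY IPs. The part of germ cell origin in the members' enrichment was not tested.

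Of a wider list of 76 genes for other germline and mRNA regulators, 71 were tested, each by its brightest probe. The IP was higher than the input for 25 and lower for 1 (Parn) in XX, and higher for 16 and lower for 1 (Tia1) in XY, where 14.1% and 9.91% of all tested probes were called in XX and 10.2% and 7.68% in XY. Among the 46 genes of each sex with signal over background on each of the 4 arrays compared, 19 were called higher in XX and 13 in XY, and 0 lower, beside the 26.5% and 19.5% called higher among all probes so measured. Of these, Srsf10, a splicing factor, had differences of 4.27 in XX and 4.30 in XY, and Elavl4, an ELAV paralogue of Elavl2, of 3.98 and 3.92. The largest others were Rbm46 (4.36), Cpeb2 (4.27) and Cpeb3 (3.93) in XX, and Msi2 (4.29), Lin28a (3.51) and Tdrd5 (3.41) in XY, all called. At the other end stood Ybx1, a general mRNA-packaging protein, with -1.90 (adjusted p = 0.0048) for XX and -1.22 (adjusted p = 0.048) for XY, short of 4-fold.

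The CPEB paralogue Cpeb3 had a difference of 2.15 in XY, and none is given there for Cpeb2, whose XY IPs were both at background. The cytoplasmic poly(A)-binding proteins Pabpc1 and Pabpc4 had differences of -1.08 (adjusted p = 0.040) and -0.87 (adjusted p = 0.15) in XX, and of -0.18 and -0.10 in XY. Of the 71 genes, 4 were called higher and 1 lower in XX for the difference in enrichment between the sexes, beside 2.18% and 1.12% of all tested probes. Rbmy and Zar1 were at background on all 4 XX arrays and Cpeb2 on both XY IPs. Khdrbs1 was the single one of the 5 measured on all 8 arrays, with 1.81 in XX and -0.61 in XY (adjusted p = 0.049). Msi2, called lower in XX, was well above background on 1 of 2 XX IPs.

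**Figure D5:**
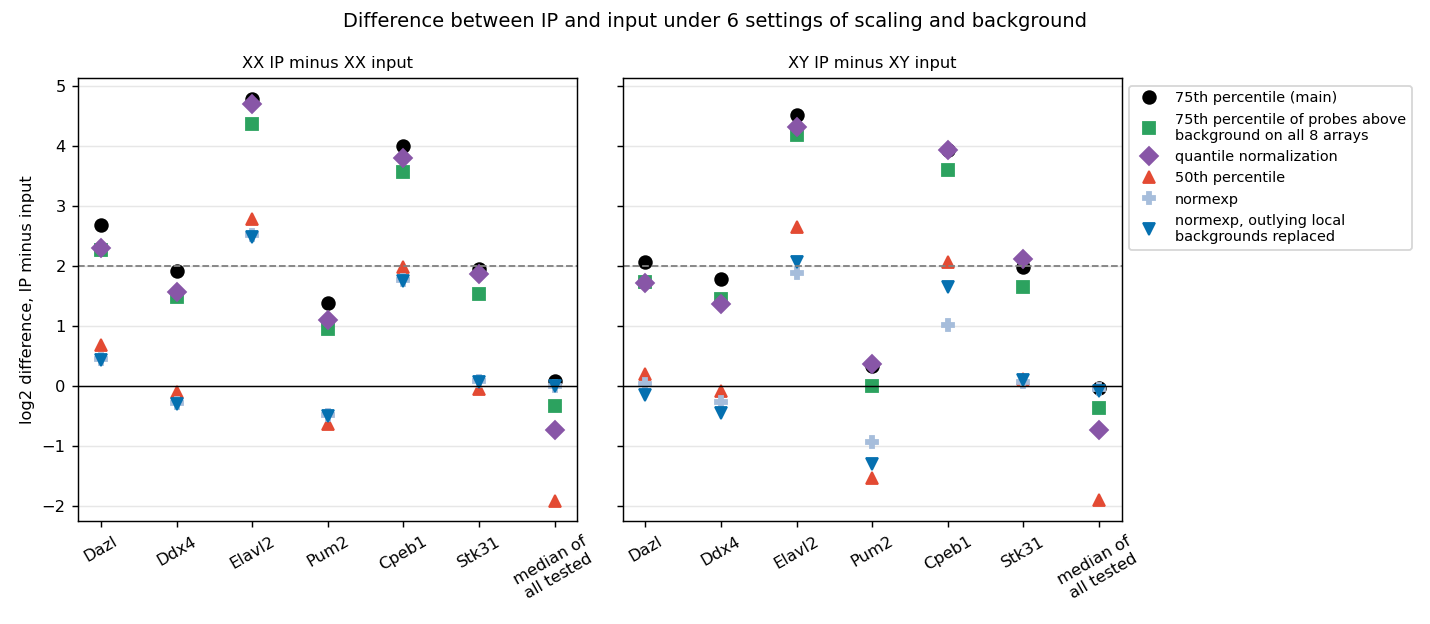
Difference of IP minus input (y axis: log2 units) for the brightest probe of the 6 member genes that were well above background on all 8 arrays, and the median of all tested probes, under 6 settings (symbols) in XX (left) and XY (right). The dashed line is 4-fold. Elavl2 lies between 2.48 and 4.78 in XX and between 1.88 and 4.51 in XY, below the line only in XY with normexp, while Dazl ranges from 0.42 to 2.69 in XX and from -0.16 to 2.06 in XY.

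The size of every enrichment depended on the setting. With quantile normalization the brighter Dazl and Elavl2 probes and Cpeb1 had differences of 2.30, 4.69 and 3.80 in XX beside a median of all tested probes of -0.74. With normexp and extreme local backgrounds replaced they had 0.42, 2.48 and 1.75 beside a median of -0.01, and Ddx4 and Pum2 (brightest probe) had -0.30 and -0.51. Normexp adds an offset of 50 scanner units, which is more than the 75th percentile of any IP array. As planned, it fitted a background mean of -469 on XY input replicate 1 and -153 on XY IP replicate 2. On every other array the mean lay between -7.93 and -4.95. These 2 arrays held local backgrounds of up to 65308 and 9760 units, against at most 259 elsewhere. With extreme local backgrounds replaced, the mean lay between -8.38 and -4.95 on all arrays. The part of these fits in lost calls was not tested. In each of the 6 settings plotted, and in each sex, Elavl2 had the largest value of these 6 genes and Cpeb1 the next.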

How the data were processed

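Per the file headers, Feature Extraction 9.5.3.1 made the deposited processed signal intensities (1 colour, Cy3), with a background already subtracted and nothing normalized between arrays. The files also hold mean and local background intensities. The authors' deposited table holds log2 values made by setting values under 1 to 1 and scaling to the 75th percentile, and was used as an alternative. Here, spots marked as outliers were dropped, a floor of 1 was set under the signals, log2 values of a probe's spots were averaged, and the 75th percentile of non-control probes was subtracted. Probes whose signal was well above background on the 2 arrays of any group (18265 of 41101) were tested with limma 3.58.1 in R 4.3.3, over all 8 arrays with 1 mean per group (4 residual and 7.83 prior degrees of freedom), two-sided, with Benjamini-Hochberg adjustment over all tested probes. The fit was tested on simulated data. Where a group was at background on both arrays, a fold is a lower bound against the lowest signal well above background, or is not given. A gene's lead probe is the one with the highest mean level, and every member probe is named. Members, lists and tests were chosen with earlier results of these data known. The depth of an array is limited by its signal over background. The alternatives were other scalings, normexp, other filters, a common floor, other variances, a replicate block, and leaving out each array. Probe sequences and an mm8 annotation were not used here, so exon or untranslated region of a probe is not given.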

Additional observations from a re-analysis of the deposited data

Results flagged for a closer look

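Nanos3 (A_51_P105480) is listed because the fit called its difference in enrichment between the sexes, 3.85 on the log2 scale (SE 0.66, limma adjusted p = 0.011). Its parts are not both measured. The XX difference of IP minus input was 3.10, between 4 arrays that were all at background, and the XY difference was -0.74, with both inputs but neither IP well above background. The log2 75th percentile of the XX arrays fell by 3.45 from input to IP, which adds as much to any unchanged dim signal. With a common floor of 1.02, which lay above all levels of this probe, the value was fixed at 0 and decides nothing. The call was lost under 8 of 19 alternatives, among them that floor and leaving out XX input replicate 1 (3.50).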

How the results depend on the processing

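Leaving out 1 array at a time gave 0 to 2 members whose enrichment was called higher in XX than XY and 0 to 5 called higher in XX input. It gave 0 of the latter without any 1 of the input arrays and 5 without any 1 of the IP arrays, where 495 to 558 and 1291 to 1628 of all 18265 tested probes were called higher beside 1072 with all arrays, and the enrichment call, Nanos3, was lost without XX input replicate 1, while Pum2 joined it without XY IP replicate 2. In XX IP, 2 members were called higher with 50th percentile scaling, 1 with normexp and 1 with normexp and extreme local backgrounds replaced (added after seeing the data), 4 with a common floor and 4 of the 7 members tested when all 8 arrays had to be above background, beside 189, 69, 67 and 1061 of 18265 probes and 1040 of 4206. In XY IP, 3 were called higher and 2 lower with 50th percentile scaling, 0 were higher with normexp (limma) and 1 with normexp and backgrounds replaced, beside 219 higher and 8378 lower, 21 higher and 70 higher of all probes. The enrichment difference had 0 calls with 50th percentile scaling, quantile normalization, either normexp, no filter, only probes above background on all 8 arrays, and ordinary variances. Nanos3 was not tested where all 8 arrays had to be above background. Members called higher in XX input numbered 0 with 50th percentile scaling and with no filter, 1 with scaling to probes above background on all 8 arrays, quantile normalization, normexp and a 4-fold minimum, and 6 when only the 4 arrays were fitted, where 4133 of all 18265 tested probes were called higher. Members called lower there numbered 1 with a common floor, which lay above all input levels of Nanos2 and Nanos3. The number was 0 where all 8 arrays had to be above background, since Nanos2, Nanos3 and Dnd1 were then not tested. Taking the mean of a gene's probes moved the XX median over the 9 genes, which takes in Nanos2 and Nanos3 at background, from 2.69 to 2.89. Of the called differences, the sign turned for the second Elavl2 probe between inputs with normexp (-0.45) and for the brighter Dazl probe in XY with backgrounds replaced (-0.16). Differences that were not called turned too, among them Ddx4 in both sexes, Dnd1 in XY and the brightest Pum2 probe in XX, with 50th percentile scaling and either normexp. The causes were not tested.

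Same-numbered arrays deviated together weakly (correlation 0.07 for XX input and IP, 0.09 for XY, 0.28 for the 2 inputs), so the numbers were not taken to pair samples. With a replicate block, 5 members were called higher in XX input in place of 3, and 1340 of all tested probes in place of 1072. Signal over background limits Nanos2 and Nanos3 in XX, Dnd1 in XX IP, Nanos3 and the 2 dimmer Pum2 probes in XY IP, and the second Elavl2 probe in XY and on 1 XX input.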

Other observations

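The array also carries a probe (A_51_P145276) for a short sequence named AJ409488, which the array files describe as an RNA binding site for the Dazl protein. It was not well above background on any of the 8 arrays, with signals of 3.22 to 4.49 scanner units, and was not tested.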
